A study of Mus musculus with 6 samples.

Results

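The 10 genes described here are Nr3c1, which encodes the glucocorticoid receptor, and 9 genes that this receptor is known to regulate: Fkbp5, Tsc22d3, Zbtb16, Klf9, Cebpd, Sgk1, Ddit4, Mt1 and Mt2. They are 10 of 19752 genes measured on Affymetrix arrays. The RNA came from skeletal muscle of the mdx mouse, a dystrophin-deficient model of Duchenne muscular dystrophy with repeated loss and regrowth of fibres. A gene was taken where the platform's annotation gave its symbol alone to a probe set, and each of the 10 had 1 such probe set. The list was drawn up with the difference between the groups already known, so the members' values in that comparison are given as a description and not as a test. All 10 had a mean level at or above that of the median gene, so each also passed a filter at the 50th percentile.

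By its title, the study concerned the loss of regulatory T cells from dystrophic muscle. Of 6 mdx samples, 3 were from mice given PC61, a monoclonal anti-CD25 that binds the alpha chain of the receptor for interleukin-2, and 3 were from mice given rat IgG. Both antibodies were injected into the peritoneum 2 times, on days 17 and 20 of age. Muscle was taken 7 days later, at day 27 by the design, although the labels state 6 weeks, or 42 days, for every sample. The labels do not say that the 3 samples of a group are separate animals, so part of the spread behind the errors given here may be technical.

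Glucocorticoids such as corticosterone enter the cell and bind the receptor, which is held in the cytoplasm by heat shock proteins and immunophilins. The receptor then moves to the nucleus, binds DNA as a dimer at palindromic elements and switches genes on, and it restrains NF-kappa-B and AP-1 at inflammatory genes. In skeletal muscle this signal is known to slow protein synthesis and to speed protein breakdown, and synthetic glucocorticoids are a standard treatment of the human disease. The targets also answer to other inputs: metallothioneins to zinc, Ddit4 to hypoxia and amino acid shortage, Cebpd to interleukin-6, and Klf9 to the circadian clock.

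Promoter sequences are shown for Sgk1 and Mt1, which carry a receptor motif, for Mt2, the neighbour of Mt1 with the most metal response elements, and for Fkbp5, whose values lead the results. RefSeq promoter windows of 300 bases in GRCm38.p6, 250 before and 50 after an annotated start, were found for 7 of the 10 members, with 14 windows in all. They were found for Fkbp5, Tsc22d3, Klf9, Sgk1, Ddit4, Mt1 and Mt2, and none was used for Nr3c1, Zbtb16 and Cebpd. Sgk1 had 6 windows and Tsc22d3 had 3. The motifs searched on both strands were the full glucocorticoid response element, AGAACA and TGTTCT with any 3 bases between them, its looser core, GNACA and TGTNC with any 3 bases between them, which the full element contains, the metal response element TGCACNC or TGCGCNC, and the E-box CACGTG that clock factors bind.
The printed stretches are the 250 bases before the start, 5′ to 3′ on the strand of the gene. Capitals mark the full element in Sgk1 (chr10:21993640-21993889, plus strand), the core element and then a metal response element in Mt1 (chr8:94178839-94179088, plus strand), metal response elements in Mt2 (chr8:94172368-94172617, plus strand) and the E-box in Fkbp5 (chr17:28486150-28486399, minus strand).
Sgk1: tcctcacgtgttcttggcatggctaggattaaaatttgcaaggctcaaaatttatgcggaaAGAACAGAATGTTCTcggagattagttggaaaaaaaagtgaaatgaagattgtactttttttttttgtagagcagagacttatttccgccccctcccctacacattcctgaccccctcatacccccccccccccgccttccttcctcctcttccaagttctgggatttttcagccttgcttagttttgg
Mt1: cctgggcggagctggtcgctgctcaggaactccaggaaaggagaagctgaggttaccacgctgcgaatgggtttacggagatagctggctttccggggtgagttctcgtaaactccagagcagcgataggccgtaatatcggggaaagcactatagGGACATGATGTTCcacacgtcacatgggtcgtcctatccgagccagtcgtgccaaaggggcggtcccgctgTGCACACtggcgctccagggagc
Mt2: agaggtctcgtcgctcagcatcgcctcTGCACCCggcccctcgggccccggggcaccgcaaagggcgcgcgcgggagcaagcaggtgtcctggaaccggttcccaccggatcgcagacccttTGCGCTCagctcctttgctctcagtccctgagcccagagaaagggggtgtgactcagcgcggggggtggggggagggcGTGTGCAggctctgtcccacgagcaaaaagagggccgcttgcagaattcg
Fkbp5: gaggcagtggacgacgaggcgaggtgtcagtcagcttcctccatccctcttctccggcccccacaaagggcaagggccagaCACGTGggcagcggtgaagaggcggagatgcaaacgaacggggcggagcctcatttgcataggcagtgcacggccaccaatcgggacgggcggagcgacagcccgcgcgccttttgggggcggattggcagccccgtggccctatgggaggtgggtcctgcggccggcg

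The full element was present in 1 of the 14 windows, that of 1 of the 6 Sgk1 starts, and began 189 bases before it. Of all 32851 mouse windows of the same length, 3 held it, or 0.00913%. The core was present in 2 of the 14, those of Sgk1 and Mt1, against 0.475% of all windows, and in Mt1 it began 94 bases before the start. A metal response element was found in 4 of the 14 windows, against 25.7% of all windows, with 4 matches in Mt2, 3 in Mt1, and 1 each in Ddit4 and a Sgk1 window. The E-box stood in 2 of the 14, those of Fkbp5 and Sgk1, against 7.15% of all windows. A match of letters is a description of the sequence and not evidence of a bound site, and a window without a match covers only these 300 bases.

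Before the results, some properties of the arrays bear on every value. The labels call all 6 samples male, yet Xist, the RNA of the inactive X chromosome, lay between 11.77 and 11.94 log2 units on 4 arrays, those numbered 1 and 2 in either group. It lay at 5.48 on rat IgG 3 and 5.49 on anti-CD25 3, where the Y-linked gene Eif2s3y lay at 9.16 and 9.22 against 3.77 or below on the other arrays. The split thus took 2 and 1 arrays from each group, called Xist-high and Xist-low here. Single values are listed in the order of the array numbers 1, 2 and 3. Muscle fibre markers such as Ckm and Acta1 were measured on every array, with a list mean between 13.12 and 13.21 log2 units. Foxp3 and Il2ra, transcripts of regulatory T cells, differed by -0.092 (SE 0.099) and -0.0049 (SE 0.094) log2 units, where a difference is always anti-CD25 minus rat IgG. The T cell marker list that holds both was dim, with a mean between 5.87 and 6.11 log2 units on each array. The lower quartile of all probe sets lay between 5.68 and 5.85. At such levels these differences do not show whether regulatory T cells were lost. Limma called 0 of the 19752 genes at an adjusted p of 0.05, which is 0%, and 6.28% had an unadjusted p under 0.05, 2.3% higher and 3.98% lower with anti-CD25. Groups did not overlap in 11.7% of all genes, 4.28% higher and 7.46% lower with anti-CD25.

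For 8 of the 9 targets, all but Zbtb16, the rat IgG arrays differed among themselves more than the anti-CD25 arrays did, and the targets were lowest on rat IgG 1, or for Fkbp5 on rat IgG 2. Each of the 9 targets was higher on average with anti-CD25, with Fkbp5 showing the largest difference, while the receptor gene itself differed little. Rat IgG 3 lay at the level of the anti-CD25 arrays for most targets. The paragraphs below take the receptor first, then its feedback gene, the anti-inflammatory and transcriptional targets, the kinase and growth targets, and the metallothioneins.

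**Figure D1:**
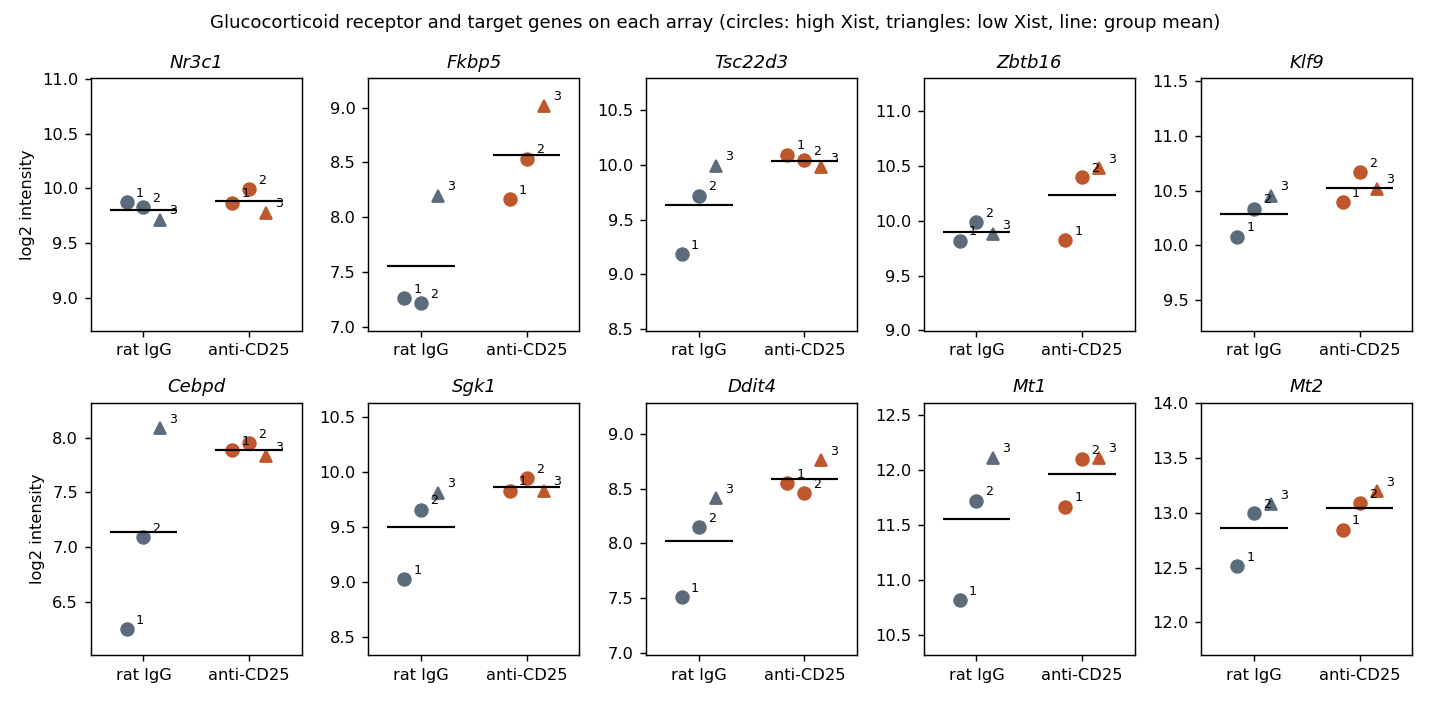
Log2 intensity (vertical axis, all panels spanning the same 2.3 log2 units) of each of the 10 genes on the 3 rat IgG and 3 anti-CD25 arrays; points are single arrays marked with their number, circles have high and triangles low Xist, and lines are group means. Rat IgG 1 is the lowest array for 8 of the 9 targets, and Nr3c1 stays between 9.71 and 9.99 on all arrays.

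Nr3c1, the receptor, was the steadiest of the 10. It measured 9.88, 9.83 and 9.71 log2 units on the rat IgG arrays and 9.87, 9.99 and 9.78 on the anti-CD25 arrays. The groups overlapped, and all 6 values lay within 0.28 log2 units. The means were 9.81 ± 0.083 (SD, n = 3) and 9.88 ± 0.11 (SD, n = 3), a difference of 0.076 (SE 0.090) with a 95% interval of -0.13 to 0.28.

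Fkbp5 encodes FKBP51, an immunophilin that joins the receptor complex, lowers its affinity for hormone and so closes a short feedback loop. It is among the genes most widely used as a readout of receptor activity. Fkbp5 measured 7.26, 7.21 and 8.20 log2 units on the rat IgG arrays and 8.16, 8.53 and 9.02 on the anti-CD25 arrays. Rat IgG 1 and 2 lay below every other array, and the groups overlapped by a narrow margin because rat IgG 3 lay just above anti-CD25 1. The means were 7.56 ± 0.55 (SD, n = 3) and 8.57 ± 0.43 (SD, n = 3), a difference of 1.01 (SE 0.28, 95% interval 0.38 to 1.65), or 2.02-fold. The difference was 1.11 in the Xist-high arrays and 0.82 in the Xist-low pair. It ran from 0.79 without anti-CD25 3 to 1.33 without rat IgG 3, so no single array moved it by more than 1.5 times.

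Tsc22d3 encodes GILZ, a leucine zipper protein that binds NF-kappa-B and AP-1 and carries part of the anti-inflammatory action of glucocorticoids. It measured 9.18, 9.72 and 9.99 log2 units on the rat IgG arrays and 10.09, 10.04 and 9.98 on the anti-CD25 arrays. The anti-CD25 arrays lay within 0.12 log2 units of each other, while the rat IgG arrays spanned 0.81 and the third of them reached the anti-CD25 level. The difference was 0.41 (SE 0.18), or 1.33-fold. It was 0.18 without rat IgG 1, 0.62 in the Xist-high arrays and -0.016 in the Xist-low pair.

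Zbtb16, Klf9 and Cebpd encode transcription factors. Zbtb16, or PLZF, a zinc finger repressor with a strong hormone response in many cell types, measured 9.82, 9.98 and 9.88 log2 units on the rat IgG arrays and 9.82, 10.40 and 10.48 on the anti-CD25 arrays. It differed from the other targets in its array pattern, because the 3 rat IgG arrays lay within 0.17 log2 units and the spread lay among the anti-CD25 arrays, the first of which was at the control level. Its difference was 0.34 (SE 0.16), with 0.21 in the Xist-high arrays and 0.60 in the Xist-low pair. It was 0.54 without anti-CD25 1 and 0.22 without anti-CD25 3, each over 1.5 times from the value on all arrays.

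Klf9, a Krueppel-like factor that the receptor induces directly and that also follows the clock, measured 10.08, 10.33 and 10.45 log2 units on the rat IgG arrays and 10.40, 10.67 and 10.52 on the anti-CD25 arrays. The groups overlapped between rat IgG 3 and anti-CD25 1. The difference was 0.24 (SE 0.12), and 0.13 without rat IgG 1. Cebpd, a C/EBP factor of the acute phase and inflammatory response, measured 6.25, 7.09 and 8.09 log2 units on the rat IgG arrays and 7.89, 7.95 and 7.83 on the anti-CD25 arrays. It had the widest spread of the 10 within rat IgG, 1.83 log2 units, and the highest value of all was on rat IgG 3. The difference was 0.74 (SE 0.36), but it was 0.30 without rat IgG 1 and 1.22 without rat IgG 3. In the Xist-high arrays it was 1.24, and in the Xist-low pair it was -0.25.

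Sgk1 and Ddit4 were the members whose groups did not overlap, both higher with anti-CD25. That is 2 of 10 members, beside 11.7% of all genes in either direction and 4.28% in this direction, and nothing is read from it since the list was chosen on this comparison. Sgk1 encodes a kinase of the AKT family that controls ion transport and opposes muscle wasting. The full element printed above lies before 1 of its 6 annotated starts. Sgk1 measured 9.02, 9.66 and 9.81 log2 units on the rat IgG arrays and 9.83, 9.94 and 9.83 on the anti-CD25 arrays. The highest rat IgG array and the lowest anti-CD25 array were almost level, so the gap between the groups was small beside the spread within rat IgG. The difference was 0.37 (SE 0.18), and 0.13 without rat IgG 1.

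Ddit4 encodes REDD1, an inhibitor of mTORC1 through which glucocorticoids lower protein synthesis in muscle. It measured 7.51, 8.14 and 8.41 log2 units on the rat IgG arrays and 8.55, 8.46 and 8.76 on the anti-CD25 arrays. All anti-CD25 arrays lay above all rat IgG arrays. The difference was 0.57 (SE 0.20, 95% interval 0.10 to 1.03), or 1.48-fold, and it was 0.31 without rat IgG 1. It was 0.68 in the Xist-high arrays and 0.35 in the Xist-low pair.

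Mt1 and Mt2 encode metallothioneins, small cysteine-rich proteins that bind zinc and copper, and the genes lie side by side on chromosome 8. Mt1 measured 10.81, 11.72 and 12.12 log2 units on the rat IgG arrays and 11.67, 12.10 and 12.11 on the anti-CD25 arrays. Mt2 measured 12.51, 12.996 and 13.08 on the rat IgG arrays and 12.85, 13.09 and 13.19 on the anti-CD25 arrays. For both genes rat IgG 1 stood apart at the low end and the other 5 arrays intermixed. The difference was 0.41 (SE 0.29) for Mt1 and 0.18 (SE 0.16) for Mt2, and both 95% intervals included 0. Without rat IgG 1 they were 0.042 and 0.0065, and without rat IgG 3 they were 0.69 and 0.29. The Mt2 difference was also 0.28 without anti-CD25 1 and 0.11 without anti-CD25 3.

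**Figure D2:**
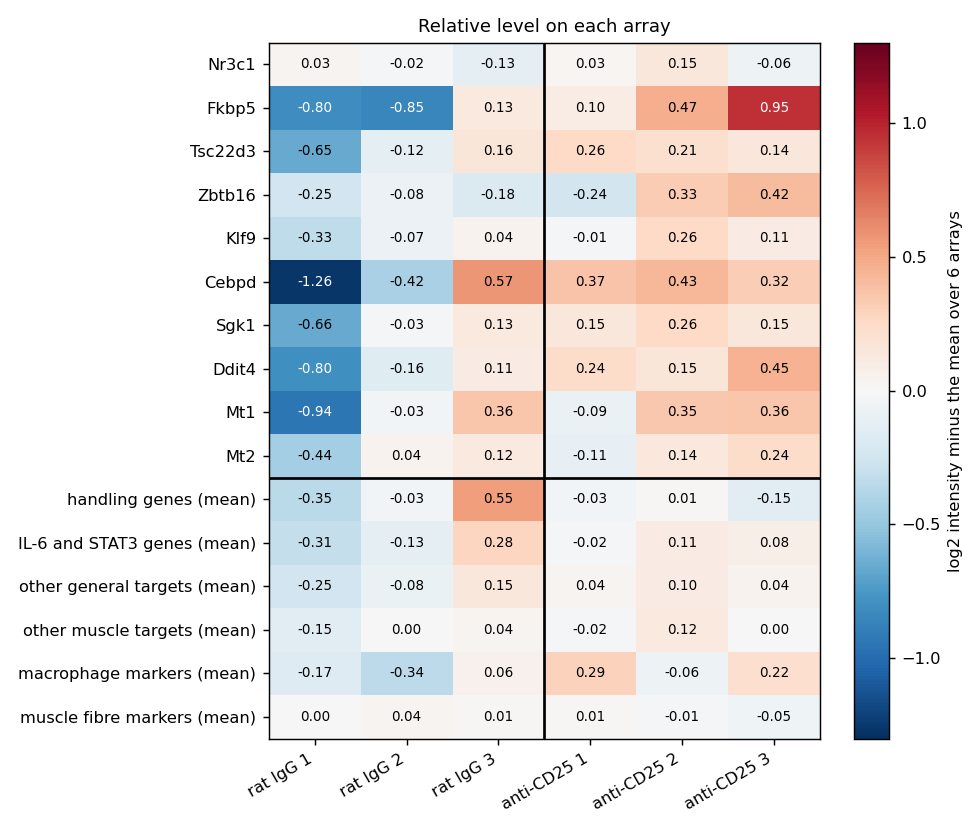
Log2 intensity on each array minus the gene's mean over the 6 arrays, for the 10 genes (above the line) and for the mean of 6 fixed gene lists (below it); blue is below and red above the gene's or list's own mean. Rat IgG 1 is blue for all 9 targets, rat IgG 3 is red for 8 of them, and the receptor Nr3c1 stays near 0 throughout.

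Taken by array, the 9 targets had a median relative level, the log2 level minus the gene's mean over the 6 arrays, of -0.66, -0.079 and 0.13 in the 3 rat IgG samples. On the anti-CD25 arrays it was 0.099, 0.26 and 0.32. Rat IgG 1 was the lowest array for 8 of the 9 targets, and for Fkbp5 rat IgG 2 was lower still. Of all genes, 11.6% had their lowest value on rat IgG 1. That share is no like baseline, since the list was chosen on this comparison and all 9 targets were higher with anti-CD25. A lowest value among the rat IgG arrays follows in part from that choice. Rat IgG 1 lay below every anti-CD25 array for 9 of 9 targets. Rat IgG 3 lay at or above the lowest anti-CD25 array for 7 of 9. The spread within rat IgG exceeded that within anti-CD25 for 8 of 9, the exception being Zbtb16. The shares of all genes with these patterns were not counted, so the counts describe the targets and nothing is read from them.

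The members' median difference was 0.39 log2 units, against -0.026 over all genes, and 10 of 10 were above 0, as were 41.1% of all genes. The list was chosen on this comparison, so its direction is a description. The size of the differences depended on the controls. Without rat IgG 1 the median was 0.16, and the differences of 7 targets, all but Fkbp5 and Zbtb16, shrank by more than 1.5 times. Without rat IgG 3 the median was 0.56, and 6 members lay higher with anti-CD25 without overlap, as did 12.5% of all genes in those 5 arrays. In the Xist-high arrays the median was 0.58 and 9 of 9 targets were above 0, and in the Xist-low pair the median was 0.066 and 6 of 9 were. Whether the difference itself differed between both kinds of array was tested with limma's interaction term over all genes. The Xist-low kind has 1 array per group, so the spread in this test comes from the Xist-high arrays alone. Of all genes 8 passed and none was a member, and the smallest adjusted p among the members was 0.082, for Cebpd, whose difference was larger by 1.498 (SE 0.38) with high Xist.

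**Figure D3:**
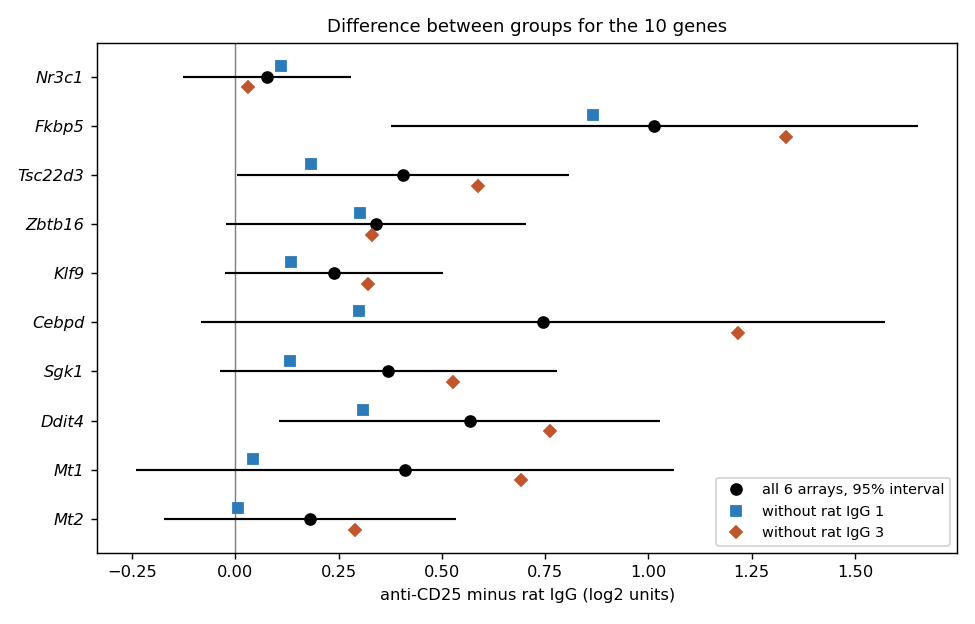
Anti-CD25 minus rat IgG in log2 units (horizontal axis) for the 10 genes; black points are limma estimates on all 6 arrays with 95% intervals, blue squares leave out rat IgG 1 and orange diamonds leave out rat IgG 3. Without rat IgG 1 the metallothioneins lie at 0.042 and 0.0065, while Fkbp5 stays at 0.87.

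Other transcripts were set beside these levels array by array. The list of immediate early genes and heat shock genes, transcripts that handling of tissue can raise, had a mean relative level of -0.35, -0.035 and 0.55 in the rat IgG samples, and of -0.032, 0.014 and -0.15 in the anti-CD25 samples. On rat IgG 1 the handling genes thus stood below their mean like 9 of the 9 targets. On rat IgG 3 they stood above it, like all targets but Zbtb16. On anti-CD25 3 they stood below it at -0.15, while the targets' median relative level there was 0.32. The part of the handling genes in the result was not tested. Macrophage markers were higher with anti-CD25 in 8 of 8 genes, none of which limma called. Their list mean lay between 9.64 and 10.04 log2 units on the rat IgG arrays and between 9.91 and 10.27 on the anti-CD25 arrays. The mean relative level was -0.17, -0.34 and 0.058 in the rat IgG samples, and 0.29, -0.065 and 0.22 in the anti-CD25 samples. It was thus lowest on rat IgG 2, and anti-CD25 2 lay below rat IgG 3. The part of macrophage content in the target levels was not tested. In whole muscle, a change in the number of cells of a type and a change in RNA per cell cannot be told apart. Muscle fibre, endothelial and fibroblast markers had median differences of -0.026, -0.015 and 0.013, T cell markers -0.085, adipocyte markers 0.025, neutrophil markers 0.045 and satellite cell and regenerating fibre markers -0.16, with no gene of these lists called.

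Partners of the receptor gave no common direction. Of 16 measured partners, 0 passed limma's test and 2 had an unadjusted p under 0.05, both higher, with a median difference of 0.0018 that was -0.0082 without rat IgG 1. Hsp90aa1, the chaperone that holds the receptor ready for hormone, differed by 0.30 (SE 0.093). Its co-chaperone Ptges3 differed by 0.21 (SE 0.081) and Hspa8 by 0.17 (SE 0.077), and these 3 had the largest moderated t in the list. Hsd11b1, which regenerates active hormone inside cells, differed by 0.021 (SE 0.094), a sign that turned without rat IgG 1 (-0.056) and without anti-CD25 1 (-0.011). Nr3c2, the mineralocorticoid receptor, differed by -0.10 (SE 0.11), and Fkbp4, the immunophilin that competes with FKBP51, by 0.042 (SE 0.079).

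Other known targets that act in muscle metabolism lay in both directions. Among 18 measured genes 11 were higher and 7 lower, while 41.1% of all genes were higher. Of the 18, 0 passed the test, and 5 had an unadjusted p under 0.05, 4 of them higher. Over all genes 2.3% were higher and 3.98% lower at that level. This list and the next were drawn up with earlier results known, so nothing is read from these shares. The 3 with the largest moderated t were Foxo1, a transcription factor of fasting and atrophy, at 0.37 (SE 0.11), Glul, glutamine synthetase, at 0.24 (SE 0.088), and Ucp3, a mitochondrial uncoupling protein, at 0.47 (SE 0.17). The atrophy ubiquitin ligase Fbxo32 lay the other way at -0.35 (SE 0.15), and Trim63, its partner in muscle atrophy, at -0.072 (SE 0.14), which turned to 0.040 without rat IgG 3. Klf15 differed by -0.18 (SE 0.12), a value of -0.075 without rat IgG 2 and -0.085 without anti-CD25 3, and Pdk4, which blocks glucose oxidation, by 0.082 (SE 0.16). With rat IgG 1 left out the Pdk4 value was -0.043, and with anti-CD25 2 left out it was -0.036. The list's median of 0.082 turned to -0.016 without anti-CD25 2.

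Among 23 targets of wider expression, 15 were higher and 8 lower, while 41.1% of all genes were higher. Of the 23, 0 passed, and 4 had an unadjusted p under 0.05, all higher, beside 2.3% of all genes. Per1, a clock gene with a well known receptor element, had an array pattern much like that of Tsc22d3 and Sgk1. It measured 8.002, 9.13 and 9.58 log2 units on the rat IgG arrays and 9.73, 9.58 and 9.44 on the anti-CD25 arrays. Rat IgG 1 was again the low array and rat IgG 3 was within the anti-CD25 range. The difference was 0.68 (SE 0.33), and 0.23 without rat IgG 1. The 3 genes with the largest moderated t were Cd163, the haemoglobin scavenger receptor that glucocorticoids induce in macrophages, at 0.51 (SE 0.12), Fam107a, an actin-binding protein, at 0.43 (SE 0.11), and Anxa1, the anti-inflammatory annexin, at 0.36 (SE 0.14). Dusp1, the MAP kinase phosphatase, lay at -0.28 (SE 0.18), with -0.11 when rat IgG 3 and -0.51 when rat IgG 1 was left out. The list's median was 0.12, and 0.024 without rat IgG 1.

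Inflammatory genes that glucocorticoids repress were lower in 14 of 21 cases and higher in 7, while 41.1% of all genes were higher. Their median was -0.088, against -0.026 over all genes. After a second quantile normalization these medians were -0.039 and -0.012. None passed, 5 had an unadjusted p under 0.05, all lower, and the median turned to 0.091 among the 8 members at or above the 50th percentile of intensity. The 3 with the largest moderated t were Tnf at -0.33 (SE 0.12), the chemokine Ccl4 at -0.24 (SE 0.079) and Nos2, inducible nitric oxide synthase, at -0.24 (SE 0.087). The cytokine Il1b lay at -0.46 (SE 0.17), and was -0.17 in the Xist-high arrays and -1.05 in the Xist-low pair. Tnf, Ccl4, Nos2 and Il1b were dim, below the median probe set, near 7.23 log2 units, on every array. Il6 stood at 6.76 log2 units on rat IgG 3 and between 4.45 and 5.16 on the other 5 arrays, and its difference of -0.28 (SE 0.53) turned to 0.48 without that array.

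**Figure D4:**
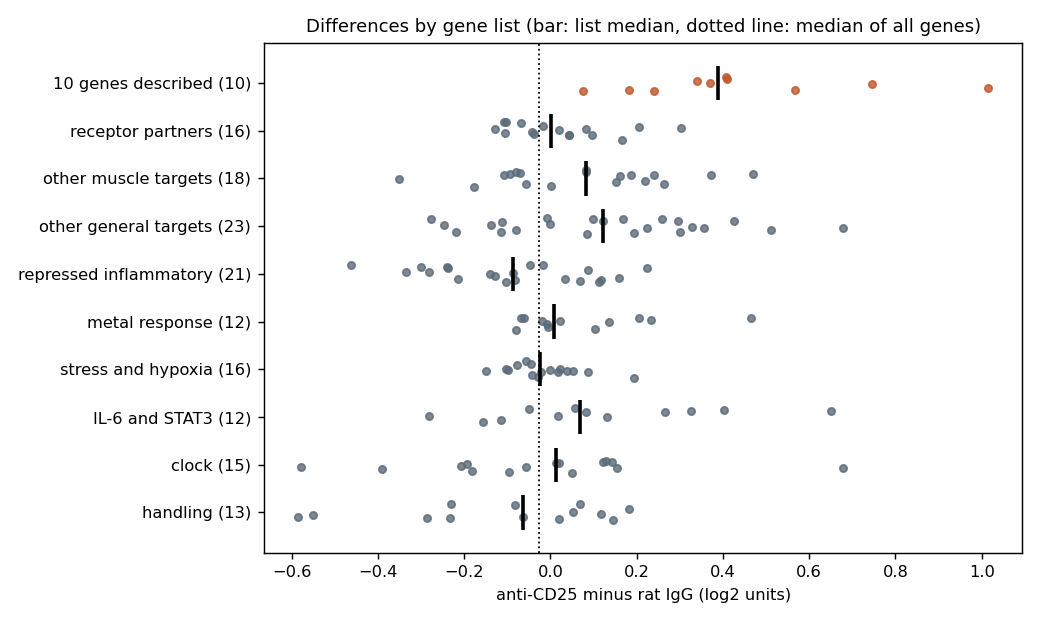
Anti-CD25 minus rat IgG in log2 units (horizontal axis) for each gene (points) of the 10 genes described and of 9 other lists, with the number measured in brackets; bars are list medians and the dotted line is the median of all genes, -0.026. The median of the 10 genes, chosen on this comparison, is 0.39, and the other medians lie between -0.088 and 0.12.

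Genes of the other inputs to the members were measured in the same way. Of 12 genes of zinc handling and the oxidative response, further metallothioneins among them, 0 passed, 6 were higher and 6 lower. The median was 0.0087, and it was -0.0041 with array weights and -0.0014 after a second quantile normalization. Without anti-CD25 1 it was 0.081. Mtf1, the zinc sensor that drives metallothioneins, differed by -0.069 (SE 0.087) and Slc30a1, the zinc exporter it induces, by -0.0075 (SE 0.085). The sign for Slc30a1 turned when rat IgG 1 (0.0035) or anti-CD25 1 (0.057) was left out. The zinc importers Slc39a14 and Slc39a10 and the thioredoxin reductase Txnrd1 had the largest moderated t, at 0.47 (SE 0.20), 0.23 (SE 0.11) and 0.14 (SE 0.089). Of 16 stress and hypoxia genes 0 passed, with a median of -0.025 that turned in 6 of 17 alternatives. Atf4, the amino acid response factor, differed by -0.00051 (SE 0.086), its sign turning with several of the arrays left out, and the leading genes were Vegfa at -0.15 (SE 0.082), Sesn2 at -0.10 (SE 0.12) and Chac1 at 0.19 (SE 0.24), the last at -0.14 without rat IgG 1. Among 12 genes of the interleukin-6 and STAT3 response 0 passed, with a median of 0.070 that was 0.24 without rat IgG 3. Socs3, the feedback inhibitor of that pathway, differed by 0.65 (SE 0.41), with 1.22 in the Xist-high arrays and -0.50 in the Xist-low pair, and Osmr, Il6ra and Bcl3 by 0.40 (SE 0.19), 0.27 (SE 0.12) and 0.33 (SE 0.18).

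Of 15 measured clock genes, a list that also holds Per1, 0 passed, the median was 0.013, turning to -0.044 without rat IgG 1, and 3 had an unadjusted p under 0.05, all lower. These were the repressor Nr1d1 at -0.58 (SE 0.12), Arntl, the clock activator that Nr1d1 represses, at -0.39 (SE 0.12) and Cry2 at -0.21 (SE 0.083). Per2 differed by 0.12 (SE 0.086) and Dbp, a clock output, by 0.051 (SE 0.10), which was -0.00057 without anti-CD25 2. Among the handling genes 0 of 13 passed, and the median of -0.065 was 0.13 without rat IgG 3. Egr1, Ier2 and Egr2, whose moderated t was largest there, stood at -0.58 (SE 0.24), -0.29 (SE 0.13) and -0.55 (SE 0.32), and Fos at -0.23 (SE 0.26). Without rat IgG 3 the 4 values were -0.27, -0.15, -0.093 and 0.12.

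Of 45 genes named from these lists, 28 had a difference that moved by more than 1.5 times when 1 of the arrays was left out. The other 17 were Hsp90aa1, Ptges3, Hspa8, Foxo1, Glul, Ucp3, Anxa1, Cd163, Fam107a, Tnf, Ccl4, Nos2, Slc39a10, Il6ra, Arntl, Cry2 and Nr1d1, none of which passed limma's test.

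The members followed Fkbp5 over the 6 arrays to differing degrees, a description in which the points share the group difference. Pearson's r with Fkbp5 was 0.85 for Ddit4 (Spearman's rho 0.77), 0.80 for Klf9 (rho 0.89) and 0.79 for Cebpd (rho 0.54), between 0.71 and 0.74 for the other 5 targets, and -0.048 for Nr3c1. With rat IgG 1 and 2, the arrays farthest from the Fkbp5 median, left out, r over the remaining 4 arrays was 0.91 for Zbtb16, 0.81 for Ddit4 and 0.78 for Mt2, but 0.53 for Mt1, 0.47 for Klf9, 0.16 for Sgk1, -0.60 for Tsc22d3 and -0.63 for Cebpd. For these 5 genes r was lower over the 4 arrays, and for Tsc22d3, Cebpd and Sgk1 the likeness to Fkbp5 rests on rat IgG 1 and 2.

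Among 124 genes that are no members, with a mean at or above the median gene and a range of at least 1 log2 unit, the 8 with the highest r were Wee1, Tfec, Slc39a14, Ifi205, Ms4a6d, Slc10a6, Ifi207 and Thbs1. Their r ran from 0.97 for Wee1 to 0.91 for Thbs1, and 17 of the 124 had an r at or above that of Ddit4. Wee1, the kinase that restrains entry into mitosis, measured 8.12, 7.82 and 8.67 log2 units on the rat IgG arrays and 8.67, 8.79 and 9.06 on the anti-CD25 arrays. Its order over the arrays was that of Fkbp5, with rho of 1.00. Tfec, a transcription factor of macrophages, had r of 0.96 and, over the 4 arrays without rat IgG 1 and 2, 0.99, while for Thbs1, the matricellular thrombospondin, r was 0.38 there. Ranked by Spearman's rho, 5 of the 8 genes were shared.

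**Figure D5:**
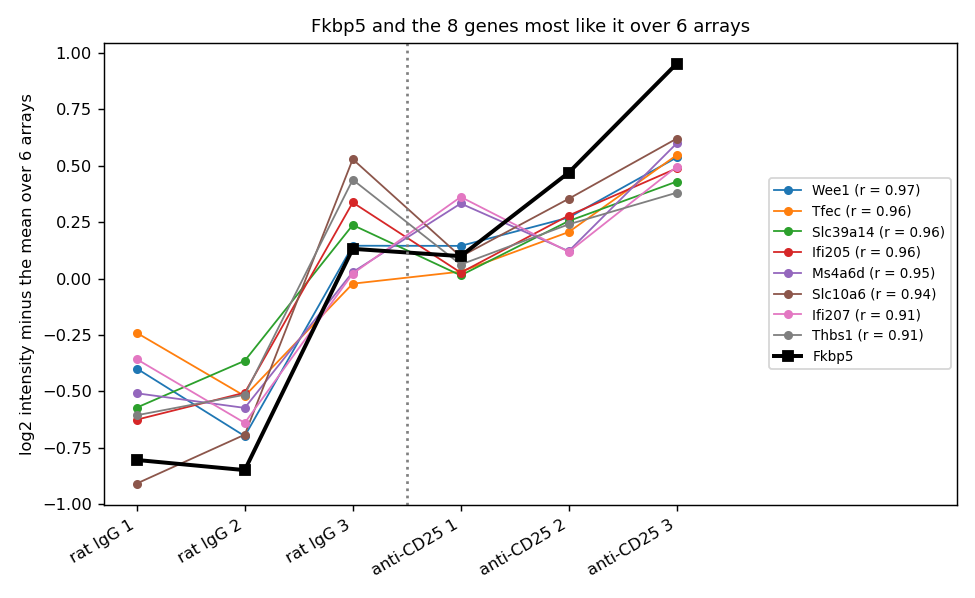
Log2 intensity minus each gene's mean over the 6 arrays (vertical axis) for Fkbp5 (black squares) and the 8 genes whose levels were most correlated with it; lines join the points of a gene for tracing only, since replicates have no order. All 9 genes are lowest on rat IgG 1 or 2, and Fkbp5 reaches 0.95 on anti-CD25 3.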

How the data were processed

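RNA from flash-frozen muscle was biotin-labelled, per the labels' protocols, and run on Affymetrix arrays. The authors deposited 1 table of linear intensity values for 24922 probe sets, made with RMA in Affymetrix Power Tools per the submitters' processing notes; their versions and any later step were not given in the sources used. RMA corrects background, equalises quantiles and draws dim probe sets together, which understates their differences. The lower quartile of the deposited values still differed between arrays. In log2 units it was 5.85, 5.85 and 5.68 on the rat IgG arrays and 5.70, 5.68 and 5.82 on the anti-CD25 arrays. Log2 was taken with no pseudocount. The platform annotation gave 21425 rows 1 symbol, 1399 several and 2098 none, leaving 19752 genes, the brightest probe set standing for a gene with several.

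Samples were grouped by title. Limma 3.58.1 in R 4.3.3 (lmFit, eBayes, two-sided, group only) was fitted to all genes with Benjamini-Hochberg adjustment and a threshold of 0.05, and was tested on simulated data. SE and 95% intervals are moderated, and differences are anti-CD25 minus rat IgG. Members and gene lists were chosen with earlier results of these data known, so no set test was run. Named are all members, a fixed set of pathway genes, the 3 genes with the largest absolute moderated t of each pathway list, any gene past the threshold, and the 8 genes most correlated with Fkbp5; unnamed predicted genes, small RNAs and antigen receptor segments were passed over. Other genes are named as marker examples. Arrays were split at 8 log2 units of Xist. Hsp90ab1, Ncor1, Cdkn1a, Npas2, Hspa1b, Trac and Cfd were listed and are not analysed here.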

Additional observations from a re-analysis of the deposited data

How the results depend on the processing

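Limma called 0 genes under 19 of 20 alternatives. The exception was the fit without rat IgG 3, which called 7 genes, none of them a member: Ccr1, Has1, Mgat4a, Ms4a4a, Slc10a6, Socs3 and Timp4, singled out after their values were seen. With an array left out the count therefore ran from 0 to 7. The Fkbp5 difference ran from 0.95 to 1.11 under the other alternatives and from 0.79 to 1.33 with an array left out, and the members' median from 0.35 to 0.58 and from 0.16 to 0.56. With the replicate number as a block the Fkbp5 difference was 1.01, the members' median 0.39 and the count of called genes 0. Over all genes, correlations of deviations from the group means were 0.030, -0.0067 and -0.17 between same-numbered arrays 1, 2 and 3. With 3 arrays per group these values cannot exclude a pairing. Number 3 was the Xist-low array in both groups, and the targets' median relative level rose from number 1 to number 3 in both. The number of members higher without overlap was 2 on all arrays and 6 in the Xist-high arrays, without rat IgG 3 and without anti-CD25 1. With fewer arrays overlap is rarer for every gene, and the share of all genes higher without overlap was 4.28% on all arrays and 18%, 12.5% and 8.46% in those settings. No scaling moved the median of all genes by more than 0.1 log2 units. The small number of arrays limits precision: the 95% interval of the median gene extended 0.22 log2 units either way.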
